A study of Mus musculus with 31 samples.

Results

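This report describes how bone-marrow-derived dendritic cells labelled Gpr34-/- responded to lipopolysaccharide (LPS), the cell wall component of Gram-negative bacteria. The members are the 6 libraries that the titles and the genotype label place in this response: naive replicates 2, 3 and 4 and LPS-treated replicates 2, 3 and 4, out of 31 libraries of dendritic cells and spleens. The mice were male C57BL/6 animals aged 8 to 16 weeks. Marrow was grown for 10 days in medium with the supernatant of the GM-CSF-secreting X63 cell line, the cells were moved to serum-free medium, and LPS was added on day 11 for 8 h. Naive cells shared strain, genotype label and culture but are not labelled as given LPS, and 6 wild-type dendritic cell libraries (3 naive, 3 LPS) from the same culture protocol were the reference. The label names a deletion carried by the animal, not one made in a chosen cell type. The labels do not name the animal or the culture behind a replicate number, so a p-value here measures the spread between these libraries, which may be technical. The LPS dose is not given in the sources used here.

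Dendritic cells take up material in tissues, carry it to lymph nodes and present it to T cells. LPS binds CD14 and the receptor TLR4. From the cell surface the adaptor MyD88 leads to NF-kB and MAP kinases and to cytokine genes, and from endosomes the adaptor TRIF leads to IRF3, type I interferon and interferon-stimulated genes. The cells then stop taking up antigen, show costimulatory proteins and become able to migrate, which is called maturation. GPR34 is a receptor for the lipid lysophosphatidylserine, and the title of the series asks how its expression is regulated.

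Gpr34 was read first, since it checks the labels. Gpr34 (ENSMUSG00000040229) lies on chromosome X from 13632089 to 13640858 on the plus strand of GRCm38, inside Cask (13517080 to 13851367, minus strand). Naive replicates 2, 3 and 4 held 0, 120 and 4 counts of it, and LPS replicates 2, 3 and 4 held 0, 117 and 104. These were 0, 1.48 and 0.0823 CPM (counts scaled to a common library size) and 0, 2.336 and 2.215 CPM, against 65 to 324 counts in the wild-type libraries. Thus 3 of the 6 libraries (naive 3, LPS 3 and LPS 4) held over 100 counts and go against their label, so all are called libraries labelled knockout. A count of 0 allows a level of up to 0.05275 CPM in naive replicate 2 and 0.07621 CPM in LPS replicate 2, for counting error only. Neither Gpr34 (log2 fold change 1.50 ± 1.34 SE, adjusted p = 0.449) nor Cask (0.17 ± 0.23) passed between LPS and naive cells. Gpr34 passed without naive replicate 3 (5.20, adjusted p = 0.0336), but that fit sets naive libraries with 0 and 4 counts against LPS libraries that go against their label, and it is no measure of a response to LPS. Gpr82, the next receptor gene, had 59, 92 and 39 counts in naive cells and 0, 71 and 58 counts with LPS (-0.16 ± 0.92, adjusted p = 0.923). LPS replicate 2, set to 3 counts, was at least 12.1-fold below the mean of naive replicates 2 and 4 for Gpr82, which is a value of 1 library. LPS replicate 2 was thus the library with 0 counts of both receptors.

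Naive replicate 3 stood apart from naive replicates 2 and 4. On the first principal component, with 47.8% of the variance, it lay at -32.6 while naive replicates 2 and 4 lay at -81.4 and -84.8 and the LPS libraries at 69.6 to 74.7. Among the genes that rose at least 2-fold in a fit without it, 1162 of 1398 (83.1%) had its level shifted toward the LPS libraries, and among those that fell 1369 of 1465 (93.45%) did. The median gene lay 34.3% and 43.9% of the way. These genes were chosen on naive replicates 2 and 4, and the same shares with naive replicate 2 or 4 left out were not taken. The shares therefore have no baseline. Results are therefore given with all 6 libraries and, where the difference matters, without naive replicate 3. Results without the 3 libraries with over 100 Gpr34 counts, which leaves naive 2 and 4 against LPS 2 alone, are named as such. The lone LPS library is then assumed to vary like the other groups.

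The 6 libraries held 41801772 to 74164853 counts. Markers of dendritic cells, the labelled type, summed to 15370 to 18660 CPM in naive and 20220 to 20990 CPM in LPS libraries. Cd74 alone was at 8632 to 11820 CPM. Of the 17 tested dendritic cell markers 3 were called higher with LPS (17.65%) and 2 lower (11.76%), against 15.3% and 13.4% of all tested genes. Macrophage and monocyte markers summed to 1507 to 4788 CPM and 1303 to 3116 CPM, lowest in replicate 3 of each group. Neutrophil and granulocyte precursor markers summed to 88.0 to 256.7 CPM and 43.6 to 87.4 CPM. Markers of B cells and of T and NK cells were near 0, at 3.56 to 12.3 and 3.75 to 5.89 CPM, and at 2.055 to 4.135 and 5.57 to 8.22 CPM, and Cd3d and Bcl11b were at 0 in all 6 libraries. In a bulk sample, fewer cells of a type and less RNA per cell cannot be told apart.

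LPS raised 2601 of 16965 tested genes (15.3%) and lowered 2274 (13.4%), 28.7% in all, in cells labelled knockout, by edgeR's quasi-likelihood test at an adjusted p under 0.05. At least 2-fold changes were 1139 higher (6.71%) and 1172 lower (6.91%), and the groups did not overlap for 41.7% of all tested genes. These calls, and those of genes below unless stated, also use the spread between the wild-type libraries. With the 6 libraries alone, edgeR called 1837 genes higher and 1571 lower. Some genes named below, such as Enpp2 (adjusted p = 0.104) and Apol7c (adjusted p = 0.117), did not pass in that test. Of 393 tested genes picked by the naming rule, 42 lost their call there and 4 gained one. The counts without naive replicate 3 were 2936 higher (16.8%) and 2672 lower (15.3%), and without the 3 libraries with Gpr34 counts 2001 (10.9%) and 1755 (9.57%). Cytokine, chemokine, interferon-stimulated and costimulatory genes were mostly called higher. Of mitotic genes 14 of 16 were lower, of lectins of antigen uptake 9 of 15 and of leukotriene enzymes 3 of 6. Scaling matters for the split: without composition factors 1441 genes (8.49%) were higher and 4986 (29.4%) lower, and the median over all genes moved from -0.02 to -0.35. Small rises therefore lost their call or their direction without the factors, while falls grew. The counts of a list are given under both scalings where the split of its calls moved by over 10 percentage points, and for some lists that lost calls.

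**Figure D1:**
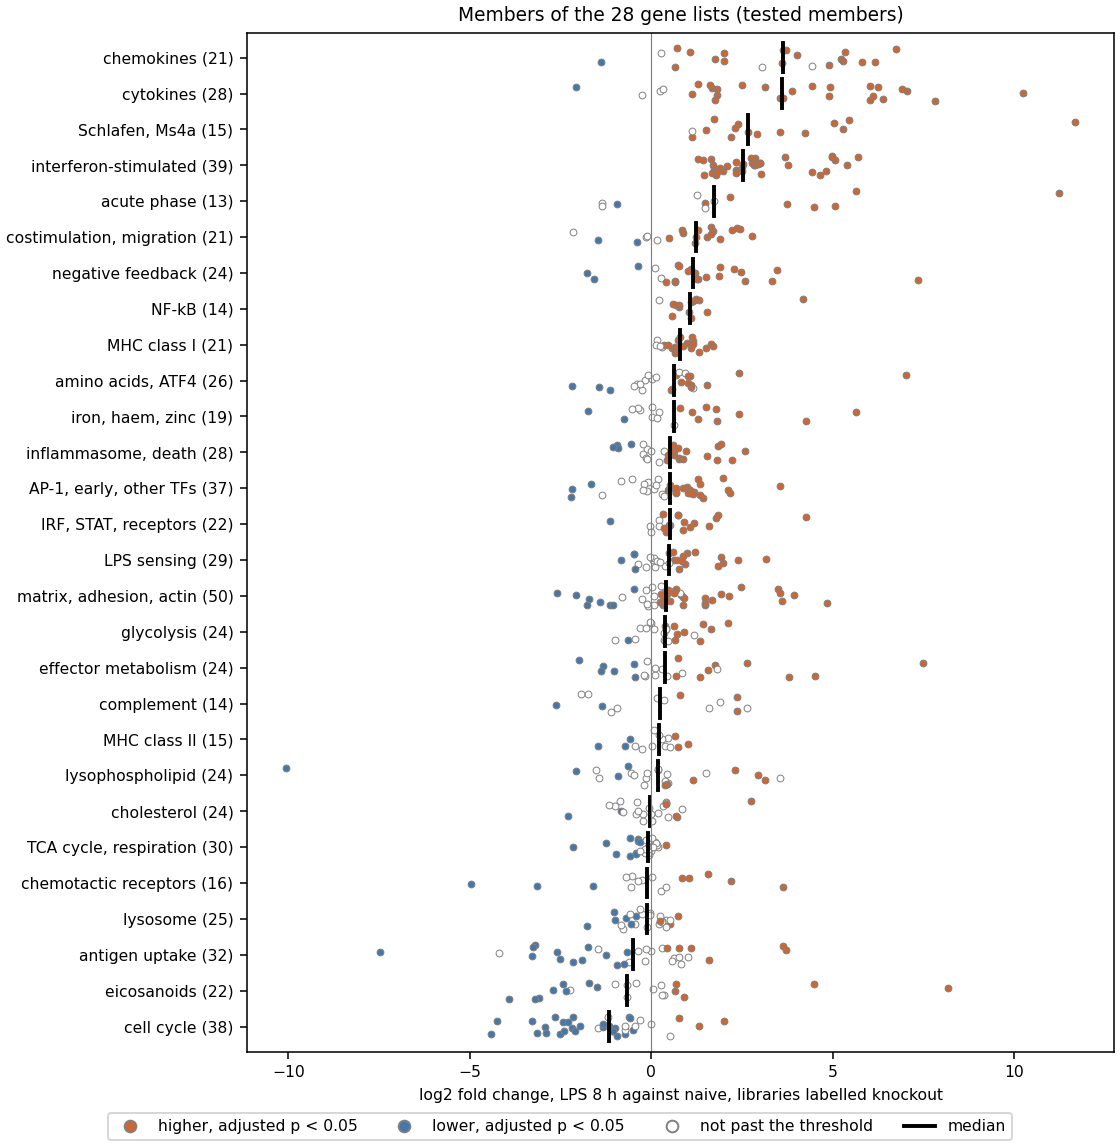
Each point is a tested member of 1 of 28 gene lists, placed by its log2 fold change (LPS 8 h against naive, libraries labelled knockout), and the black bar is the list's median. Orange and blue points passed at an adjusted p under 0.05. Chemokines (median 3.62) and cytokines (3.59) stand at the top and cell cycle genes (-1.18) at the bottom.

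The genes that sense LPS moved in both directions. Of 29 tested members 15 rose and 3 fell (median 0.48, against -0.02 for all genes; 11 higher and 4 lower without composition factors). Cd14, which hands LPS to TLR4, stood at 43.7, 64.7 and 41.9 CPM in naive replicates 2, 3 and 4 and at 456, 397 and 479 CPM with LPS. The groups did not overlap and Cd14 rose (log2 fold change 3.15 ± 0.24 SE, adjusted p = 7.5e-06). Of the list's 12 tested receptor genes, Cd14 among them, 6 rose, 1 fell and 5 did not pass. Without composition factors 4 rose and 2 fell. The receptor genes with the next smallest p rose less than Cd14. Tlr1 rose by 2.39 ± 0.29, Tlr3, a sensor of double-stranded RNA, by 1.98 ± 0.30, and Tlr2 by 1.21 ± 0.24. Among kinases and adaptors, Map3k8 rose by 1.91 ± 0.21, Ikbke by 1.83 ± 0.19, Tbk1 by 0.87 ± 0.11 and the TRIF gene Ticam1 by 0.77 ± 0.11.

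Of 14 tested genes of NF-kB, the factor that TLR4 releases, 13 rose and 0 fell (median 1.06). All 5 subunits rose, from Relb at 0.58 ± 0.14 to Nfkb2 at 1.03 ± 0.18. Nfkb2 stood at 606, 1035 and 569 CPM in naive cells and 1549, 1513 and 1453 CPM with LPS, so naive replicate 3 lay between its group and the LPS libraries. All 6 inhibitors of the family rose as well. Nfkbiz, an atypical inhibitor that NF-kB itself induces, went from 18.2, 41.3 and 20.5 CPM to 505, 495 and 444 CPM (4.17 ± 0.29, adjusted p = 3.6e-06). Chuk, a kinase of the complex, was the member that did not pass (0.20 ± 0.15). Without composition factors 2 of the 5 subunits passed, and Rela (0.27, adjusted p = 0.0786), Rel (0.44, adjusted p = 0.0536) and Relb (0.25, adjusted p = 0.137) did not.

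Inhibitors of the signal rose together with it. Of 24 tested feedback genes 19 rose and 3 fell (median 1.14), and without composition factors 15 rose and 3 fell. Socs3, which blocks cytokine receptors, stood at 8.62, 19.8 and 11.9 CPM in naive cells and 140, 109 and 159 CPM with LPS (3.33 ± 0.28). Irak3, which blocks TLR signalling, rose by 1.89 ± 0.18, and Zc3h12a, an RNase that cuts cytokine mRNAs, by 2.57 ± 0.16. The mRNA decay gene Zfp36l2 went the other way, from 28.5, 17.2 and 34.3 CPM to 7.55, 6.27 and 9.80 CPM (-1.76 ± 0.29). Il10, the anti-inflammatory cytokine, went from 0, 0.0861 and 0 CPM to 5.54, 6.39 and 6.39 CPM (7.34 ± 0.85, adjusted p = 0.000129). Its reads in naive cells were all in replicate 3, and without that library the rise was at least 215-fold, with naive replicates 2 and 4 set to a floor of 3 counts in all.

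Cytokine genes gave one of the largest medians, with 24 of 28 tested members higher and 1 lower (median 3.59). Il12b, a subunit of the interleukins 12 and 23 that drive T helper cells, stood at 69.0, 137 and 45.7 CPM in naive cells. It stood at 5160, 5850 and 5215 CPM with LPS, with no overlap (6.01 ± 0.37, adjusted p = 1.66e-06). Its partners, the subunit genes Il12a and Il23a, were near 0 in naive cells. Il12a went from 0.141, 0.320 and 0 CPM to 29.3, 12.5 and 20.15 CPM (6.89 ± 0.65). Il23a went from 0, 0.172 and 0.0411 CPM to 7.49, 16.3 and 8.82 CPM (7.03 ± 0.70). LPS replicate 3 had the lowest Il12a and the highest Il23a of the LPS libraries.

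Interleukin 1 and its antagonist rose in the same cells. Il1b stood at 22.2, 54.9 and 21.6 CPM in naive cells and 3237, 1924 and 3014 CPM with LPS (6.37 ± 0.42, adjusted p = 2.84e-06). Il1a went from 10.3, 23.96 and 9.48 CPM to 1243, 826.9 and 1232 CPM (6.23 ± 0.37). In both genes naive replicate 3 was the highest naive library and LPS replicate 3 the lowest LPS library. Il1rn, the secreted receptor antagonist, rose by 2.46 ± 0.21, from 192.6, 280.5 and 248.9 CPM to 1362, 930.2 and 1672 CPM.

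Other secreted factors ranged widely. Csf3, the granulocyte growth factor, had the largest log2 fold change among genes that reached 10 CPM and whose groups did not overlap. It went from 0.0352, 0.0123 and 0 CPM, which is 3 counts over the group, to 18.9, 31.8 and 16.2 CPM (10.24 ± 0.54, adjusted p = 3.5e-06). The ratio of its mean CPM was 1407, with a 95% exact Poisson interval of 481 to 6822 for the error of those 3 counts only. Il6, which drives acute inflammation, went from 4.68, 12.2 and 5.16 CPM to 551, 421 and 462 CPM (6.01 ± 0.37). Tnf stood at 9.02, 21.1 and 11.5 CPM in naive cells and 579, 275 and 386 CPM with LPS (4.89 ± 0.40). Il27, a cytokine that limits T cell responses, rose by 4.93 ± 0.28 and Lif by 3.63 ± 0.28.

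**Figure D2:**
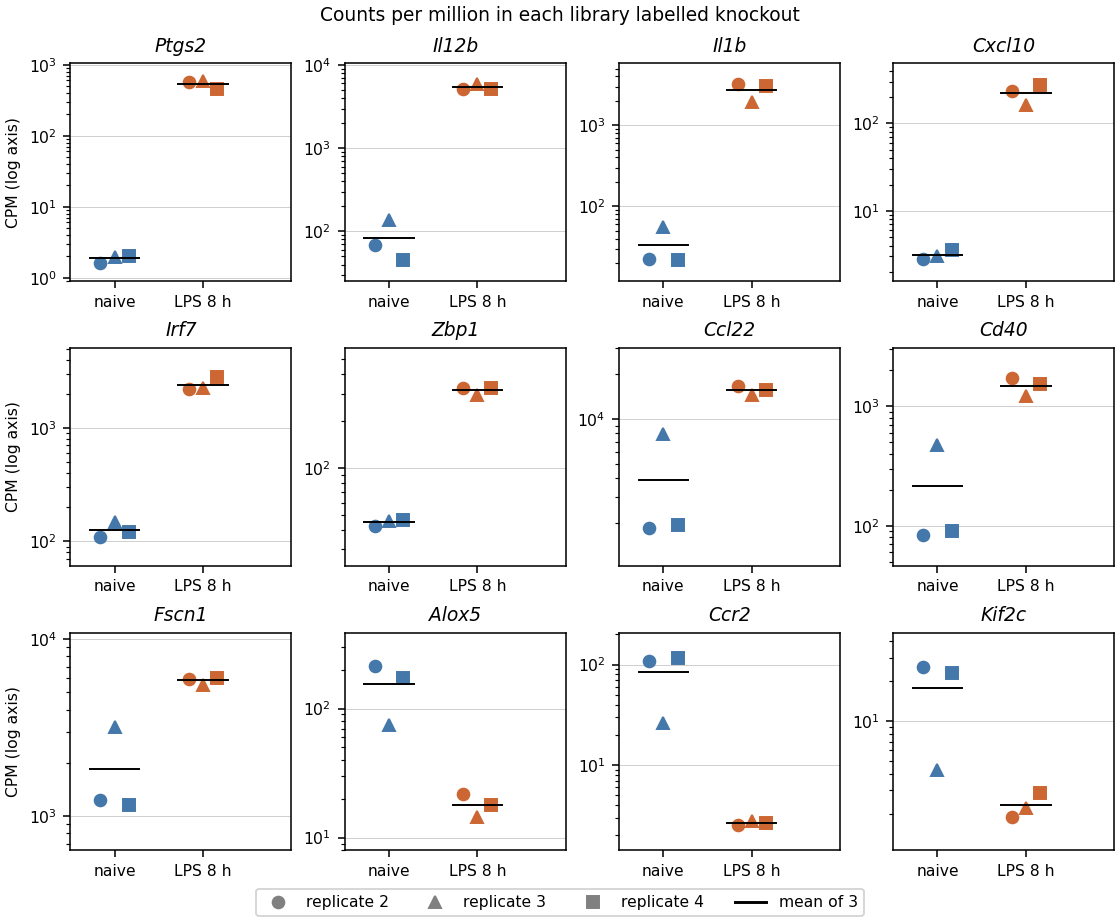
CPM on a log axis of 12 genes in each of the 6 libraries labelled knockout, with a symbol for each replicate number and a line at the mean of 3. For Ptgs2, Cxcl10, Irf7 and Zbp1 the naive libraries lie close together, while for Ccl22, Cd40, Fscn1, Alox5, Ccr2 and Kif2c naive replicate 3 lies between the other naive libraries and the LPS libraries.

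Of 21 tested chemokine genes 17 rose and 1 fell (median 3.62). Ccl22, which draws CCR4-bearing T cells, had the largest increase in mean CPM of any gene named by the rule. It stood at 1847, 7942 and 1937 CPM in naive cells and 16760, 14610 and 15790 CPM with LPS (2.01 ± 0.46, adjusted p = 0.00756). Naive replicate 3 was over 4 times the other naive libraries, and without it the log2 fold change was 3.04 ± 0.09 (adjusted p = 3.5e-08). The test on the 6 libraries alone did not call Ccl22 (adjusted p = 0.0518).

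The neutrophil attractants of the CXC group rose by more on the log2 scale. Cxcl2 stood at 13.7, 64.4 and 22.3 CPM in naive cells and 2392, 1576 and 1634 CPM with LPS (5.80 ± 0.54). Cxcl1 went from 7.49, 34.9 and 14.8 CPM to 837, 617.5 and 699.6 CPM (5.23 ± 0.51). Naive replicate 3 was again the highest naive library in both. Cxcl10, an attractant of activated T cells that interferon induces, went from 2.83, 3.04 and 3.58 CPM to 238, 161 and 272 CPM (6.15 ± 0.24, adjusted p = 1.36e-07). For this gene naive replicate 3 lay between naive replicates 2 and 4.

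The CC chemokines Ccl3, Ccl4, Ccl2 and Ccl7, which attract monocytes and other cells, rose by 4.90 ± 0.32, 3.71 ± 0.34, 3.62 ± 0.38 and 5.28 ± 0.45. For all 4, LPS replicate 3 was the lowest LPS library: Ccl2 stood at 546.5, 201 and 539 CPM and Ccl3 at 827, 367 and 506.5 CPM. Ccl5 went from 891.5, 1977 and 800 CPM to 4108, 3917 and 4320 CPM (1.75 ± 0.28), with naive replicate 3 above the other naive libraries.

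Receptors for chemoattractants were split, with 5 of 16 tested members higher (31.25%) and 3 lower (18.75%), against 15.3% and 13.4% of all tested genes. The list's median was -0.11, but 0.04 without naive replicate 2 and 0.12 without LPS replicate 3. Without composition factors 5 were higher and 5 lower. Ccr2, which holds monocyte-derived cells responsive to CCL2, fell from 109, 26.5 and 115.5 CPM to 2.54, 2.76 and 2.64 CPM (-4.98 ± 0.51, adjusted p = 6.01e-05). The LPS libraries lay close together for Ccr2, and naive replicate 3 was the lowest naive library. Cxcr4 fell by 1.60 ± 0.22. Fpr1, the receptor for bacterial formyl peptides, rose by 2.20 ± 0.30, and Ccrl2, which binds chemerin, by 3.62 ± 0.35.

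Of 9 tested prostaglandin enzymes 3 rose (33.3%) and 2 fell (22.2%), against 15.3% and 13.4% of all tested genes. Ptgs2, the inducible cyclooxygenase, had the smallest adjusted p among the genes named here. It stood at 1.62, 1.98 and 2.00 CPM in naive cells and 565, 584 and 461 CPM with LPS (8.17 ± 0.21, adjusted p = 1.11e-08). Ptges, which makes prostaglandin E2 from its product, rose by 4.48 ± 0.38. The constitutive cyclooxygenase Ptgs1 fell from 195, 56.5 and 162 CPM to 14.4, 5.11 and 7.69 CPM (-3.93 ± 0.52). Thromboxane synthase, Tbxas1, fell with it (-2.71 ± 0.44).

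Of 6 tested leukotriene enzymes 3 fell and 0 rose. Alox5, the first enzyme of leukotriene synthesis, stood at 215, 74.1 and 171.5 CPM in naive cells and 21.6, 14.3 and 17.8 CPM with LPS (-3.10 ± 0.36). Alox5ap, which presents the substrate to it, fell by 2.44 ± 0.33 on the log2 scale, and Lta4h by 1.49 ± 0.22. Naive replicate 3 was the lowest naive library for all 3. Ltc4s, at 62.3, 109 and 48.4 CPM against 51.1, 39.9 and 47.5 CPM, did not pass and its groups overlapped. The whole list had 5 of 22 members higher and 8 lower (median -0.66; 2 higher and 10 lower without composition factors).

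Among enzymes that make antimicrobial metabolites, 9 of 24 tested members rose and 6 fell (median 0.37; 8 higher and 8 lower without composition factors). Nos2, which makes nitric oxide, went from 1.002, 0.984 and 1.17 CPM to 177.5, 109 and 276 CPM (7.48 ± 0.50). Gch1, which makes its cofactor, rose by 1.74 ± 0.14, while Asl, which recycles arginine, fell by 0.47 ± 0.09 on the log2 scale. Acod1, the source of itaconate, stood at 15.9, 38.8 and 22.5 CPM in naive cells and 664, 401 and 691 CPM with LPS (4.50 ± 0.35). The arginine transporter gene Slc7a2 went from 111, 132 and 144 CPM to 2212, 963 and 2126 CPM (3.78 ± 0.36). LPS replicate 3 was the lowest LPS library for Nos2, Acod1 and Slc7a2. Mitochondrial superoxide dismutase, Sod2, rose by 2.64 ± 0.18, and the peroxidase gene Gpx1 fell by 1.02 ± 0.11 on the log2 scale. Arg1, at 1.09, 0.0861 and 0.514 CPM against 0.533, 0.339 and 0.937 CPM, did not pass.

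All 39 tested interferon-stimulated genes rose (median 2.52), against 15.3% of all tested genes, and for all 39 the groups did not overlap, against 41.7%. Zbp1, a sensor of unusual nucleic acids, stood at 42.5, 45.4 and 46.4 CPM in naive cells and 326.5, 294 and 328 CPM with LPS (2.82 ± 0.10, adjusted p = 7.77e-08). Usp18, which limits interferon signalling, rose by 2.98 ± 0.12, and the antiviral enzyme Oas3 by 2.94 ± 0.13. The RNA sensor genes Dhx58, Ddx58 and Ifih1 rose by 2.98 ± 0.15, 2.34 ± 0.13 and 2.37 ± 0.22. Among the interferon-induced GTPases, Gbp2 went from 255, 274 and 237 CPM to 1471, 1256 and 1596 CPM (2.50 ± 0.12) and Irgm1 from 35.8, 45.2 and 52.4 CPM to 238, 241 and 287 CPM (2.52 ± 0.17). Members of these families resemble each other in sequence, so reads may be split between them.

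The factors that drive this group rose in part. Of 22 tested IRF, STAT and interferon receptor genes 15 rose and 1 fell (median 0.50; 9 higher and 3 lower without composition factors). Irf7, which amplifies type I interferon, went from 110, 147 and 122 CPM to 2185, 2230 and 2819 CPM (4.26 ± 0.22, adjusted p = 6.34e-07). Stat2 stood at 347, 369 and 387 CPM in naive cells and 1252, 1292 and 1393 CPM with LPS (1.84 ± 0.08). Ifngr1, a chain of the interferon gamma receptor, fell by 1.15 ± 0.21 on the log2 scale, and its partner gene Ifngr2 rose by 0.49 ± 0.09. Ifnar1 (0.39 ± 0.08) and Jak1 (0.31 ± 0.08) rose as well. Without composition factors none of these 3 passed, with Ifngr2 at 0.16, Ifnar1 at 0.06 and Jak1 at -0.02. Jak1 did not pass either without naive replicate 2 (0.26) or without naive replicate 4 (0.27).

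Promoters were read because many of the genes that rose are known targets of interferon factors or NF-kB. The core of the interferon-stimulated response element (ISRE), which is GAAA, any 2 bases and GAAA, and the NF-kB consensus were searched on both strands in the 250 bases before the start. The sequences are RefSeq's, build GRCm38.p6. The ISRE core was in 3.46% of all 27025 genes with a promoter there, in 3.45% of tested genes, in 10.9% (80 of 736) of those that rose at least 2-fold and in 3.25% (28 of 862) of those that fell as much. It was in 15 of 30 genes (50%) of the interferon list. In the other lists searched it ranged from 0 of 10 NF-kB genes to 2 of 16 costimulation genes (12.5%). The NF-kB consensus was in 4.46% of all genes, in 5.44% of tested genes, in 10.1% (74 of 736) of those that rose and in 3.83% (33 of 862) of those that fell. It was in 5 of 10 NF-kB genes (50%), 5 of 14 chemokine genes (35.7%) and 7 of 22 cytokine genes (31.8%). The other lists searched had it in 4 of 18 MHC class I genes (22.2%) and 2 of 16 costimulation genes (12.5%). For interferon-stimulated genes it was 3 of 30 (10%), and for cell cycle genes 2 of 33 (6.06%). A match is a description of the letters and not a binding site.

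The windows below are those with the most matches among the genes named by the rule that rose, shown because they carry the letters counted above. Capitals mark the matches. Each runs 5′ to 3′ along its gene and ends at the base before the start. The ISRE core has 3 matches in Cybb (chrX:9469325-9469574, minus strand), which encodes a subunit of the phagocyte oxidase, and 2 overlapping matches in Irgm1 (chr11:48871421-48871670, minus strand). Cxcl10 (chr5:92348890-92349139, minus strand) has 1 ISRE core and 2 matches to the NF-kB consensus. That consensus has 3 matches in Nfkb2 (chr19:46304487-46304736, plus strand), of which the first and second overlap on opposite strands. Cxcl2 (chr5:90903649-90903898, plus strand) has 2, which are 1 overlapping stretch read on both strands.
Cybb: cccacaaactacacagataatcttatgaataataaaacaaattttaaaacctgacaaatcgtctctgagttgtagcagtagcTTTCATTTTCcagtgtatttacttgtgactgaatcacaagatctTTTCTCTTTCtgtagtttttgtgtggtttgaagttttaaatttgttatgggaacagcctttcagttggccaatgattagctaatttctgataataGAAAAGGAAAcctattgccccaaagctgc
Irgm1: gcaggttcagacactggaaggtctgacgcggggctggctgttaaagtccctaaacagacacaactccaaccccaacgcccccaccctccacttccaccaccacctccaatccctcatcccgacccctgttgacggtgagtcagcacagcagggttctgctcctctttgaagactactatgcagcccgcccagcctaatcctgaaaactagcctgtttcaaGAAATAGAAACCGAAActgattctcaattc
Cxcl10: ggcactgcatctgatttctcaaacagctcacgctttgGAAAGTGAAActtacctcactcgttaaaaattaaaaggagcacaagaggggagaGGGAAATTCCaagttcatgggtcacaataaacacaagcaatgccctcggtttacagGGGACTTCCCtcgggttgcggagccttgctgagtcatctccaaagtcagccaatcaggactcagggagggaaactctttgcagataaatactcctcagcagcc
Nfkb2: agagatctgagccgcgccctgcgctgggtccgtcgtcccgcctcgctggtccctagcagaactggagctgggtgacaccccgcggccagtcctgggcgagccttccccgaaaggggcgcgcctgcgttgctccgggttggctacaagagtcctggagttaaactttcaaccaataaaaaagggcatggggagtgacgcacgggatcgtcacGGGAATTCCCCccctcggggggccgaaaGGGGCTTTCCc
Cxcl2: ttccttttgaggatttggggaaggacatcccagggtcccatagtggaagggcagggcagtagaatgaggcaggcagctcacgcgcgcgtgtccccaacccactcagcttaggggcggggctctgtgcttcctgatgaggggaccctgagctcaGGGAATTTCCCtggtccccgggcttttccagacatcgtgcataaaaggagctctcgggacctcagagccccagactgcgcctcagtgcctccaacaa

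Cybb, whose window holds the most ISRE cores, rose from 257, 256 and 285 CPM to 736, 509.7 and 771 CPM (1.34 ± 0.15, adjusted p = 0.000124). Its rise was smaller than that of Cxcl10 (6.15) or Irgm1 (2.52), which have fewer matches.

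Of 37 other inducible regulators of transcription 21 rose and 3 fell (median 0.52), and without composition factors 14 rose and 4 fell. Atf3, which dampens inflammatory genes, stood at 45.6, 51.4 and 30.1 CPM in naive cells and 177, 173 and 199 CPM with LPS (2.11 ± 0.20). Junb rose by 1.27 ± 0.16 and Batf by 2.17 ± 0.28. The histone demethylase gene Kdm6b rose by 1.33 ± 0.12. Klf4 and Cebpa, factors of myeloid cells, fell by 2.22 ± 0.30 and 2.19 ± 0.27 on the log2 scale, with naive replicate 3 the lowest naive library for both.

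Costimulatory and maturation genes rose in 15 of 21 tested members and fell in 2 (median 1.22). Without composition factors 11 rose and 2 fell, and of 11 costimulatory members 5 rose and 1 fell, against 9 and 1 with the factors. Cd40, through which T cells license dendritic cells, stood at 83.3, 477 and 90.3 CPM in naive cells and 1714, 1221 and 1535 CPM with LPS (2.78 ± 0.57, adjusted p = 0.00406). Without naive replicate 3 the log2 fold change was 4.08 (adjusted p = 2.37e-07). Cd86, a ligand of CD28, went from 295, 655 and 342.5 CPM to 921, 1063 and 1014 CPM (1.21 ± 0.24). Cd80 went from 195, 454 and 196 CPM to 570, 736 and 661 CPM (1.22 ± 0.27). Over the list, naive replicate 3 lay 0.91 above the mean of naive replicates 2 and 4 in the median on the log2 scale. Cd274, which encodes the checkpoint ligand PD-L1, rose by 1.71 ± 0.18, and Lgals9 by 2.43 ± 0.13.

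Genes of the migratory state did the same. Fscn1, which bundles actin in dendrites, stood at 1231, 3180 and 1154 CPM in naive cells and 5965, 5514 and 6045 CPM with LPS (1.65 ± 0.32, adjusted p = 0.00282). Traf1 rose by 1.27 ± 0.16 and Marcksl1 by 1.65 ± 0.28. Lamp3, a marker of mature human dendritic cells, was at 0.176, 0.394 and 0.453 CPM against 0.102, 0.0799 and 0.0426 CPM and did not pass. Vsir, a checkpoint gene, fell by 1.46 ± 0.32 on the log2 scale.

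**Figure D3:**
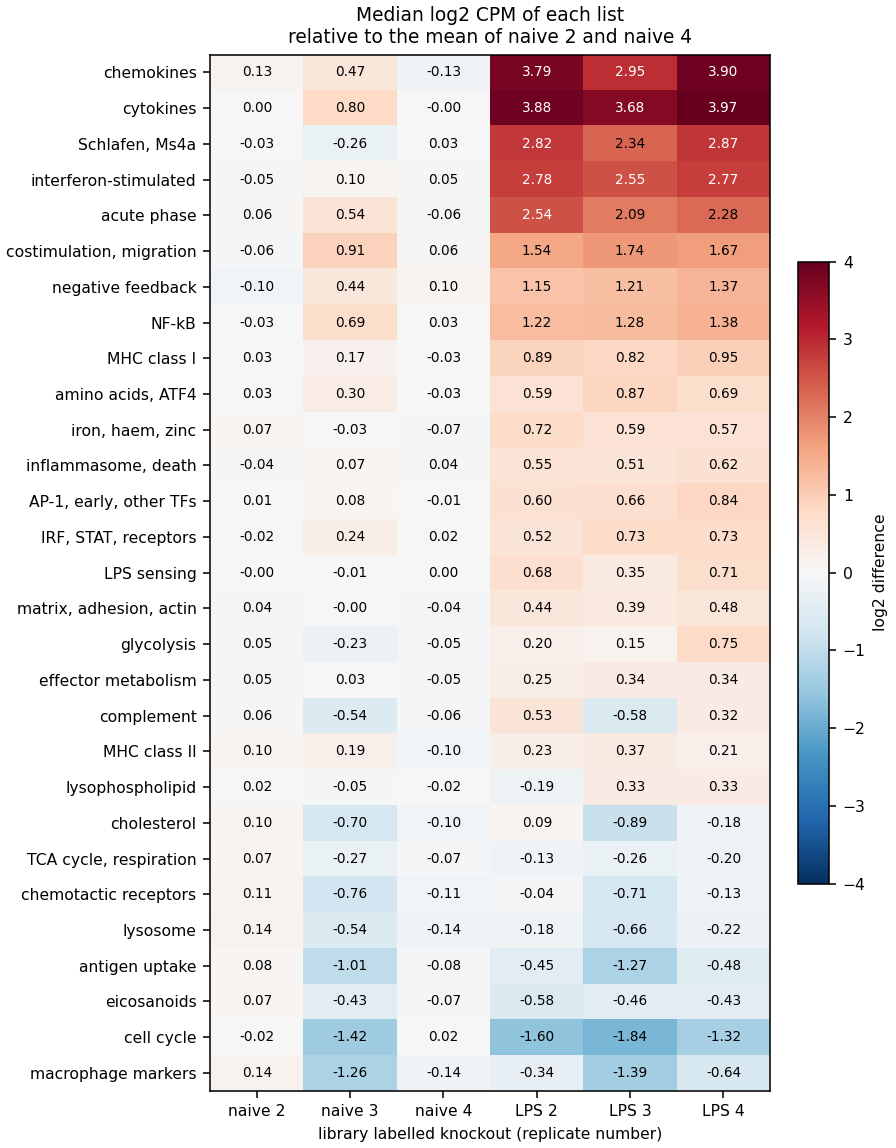
Median log2 CPM of each list's tested members in each library, relative to the mean of naive replicates 2 and 4 (columns are libraries, rows are lists, colour and printed value are the log2 difference). Naive replicate 3 is high for costimulation (0.91), cytokines (0.80) and NF-kB (0.69), near 0 for interferon-stimulated genes (0.10), and low for cell cycle genes (-1.42) and macrophage markers (-1.26).

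Of 21 tested genes of presentation on MHC class I 17 rose and 0 fell (median 0.79). Tap1, which carries peptides into the endoplasmic reticulum, stood at 323, 372 and 310.5 CPM in naive cells and 938, 946 and 969.9 CPM with LPS (1.51 ± 0.09, adjusted p = 1.03e-06). Tapbp rose by 1.64 ± 0.11, the immunoproteasome genes Psmb10 and Psmb8 by 1.32 ± 0.08 and 0.79 ± 0.08, and the transactivator Nlrc5 by 1.70 ± 0.12. The class I genes H2-K1 and H2-D1, near-identical in part, rose by 0.64 ± 0.10 and 0.65 ± 0.10.

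Genes of presentation on MHC class II had 3 of 15 tested members higher (20%) and 3 lower (20%). Over all tested genes the shares were 15.3% and 13.4%. The list's median was 0.20, and without composition factors it was -0.12, with 2 higher and 4 lower. H2-Ab1 stood at 1208, 1786 and 1053 CPM in naive cells and 1986, 2297 and 2096 CPM with LPS (0.66 ± 0.18, adjusted p = 0.0187). It did not pass without the factors (0.34, adjusted p = 0.137), nor without naive replicate 2 (0.58), naive replicate 4 (0.49) or LPS replicate 3 (0.60). H2-Aa, at 1481, 2241 and 1297 CPM against 2042, 2307 and 2116 CPM, did not pass with all 6 libraries (0.37 ± 0.18) but did without naive replicate 3 (0.62, adjusted p = 0.00199). The transactivator gene Ciita rose by 1.01 ± 0.24. Of 3 genes that process antigen 2 fell, and Ctss did not pass. Ifi30, a thiol reductase, fell by 1.48 ± 0.23 and Lgmn, an endoprotease, by 0.59 ± 0.13 on the log2 scale. H2-DMa, which helps load peptides, fell by 0.74 ± 0.13.

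Receptors of antigen uptake fell in 13 of 32 tested members and rose in 6 (median -0.50; 4 higher and 14 lower without composition factors). The C-type lectins carried most of it, with 9 of 15 lower and 2 higher (median -1.47). Clec10a, which binds galactose-type sugars, stood at 220, 78.9 and 206 CPM in naive cells and 18.9, 18.1 and 17.4 CPM with LPS (-3.21 ± 0.35, adjusted p = 8.35e-05). Mrc1, the mannose receptor, fell from 68.3, 8.33 and 51.8 CPM to 5.44, 2.46 and 5.48 CPM (-3.27 ± 0.62). Naive replicate 3 was near the LPS libraries for Mrc1, though the groups did not overlap. Clec4e, a receptor for mycobacterial glycolipid, went the other way, from 15.5, 37.0 and 15.6 CPM to 360, 197 and 337 CPM (3.71 ± 0.38).

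Scavenger receptors were split, with 4 of 12 higher and 4 lower (33.3% each), against 15.3% and 13.4% of all tested genes. Marco rose by 3.63 ± 0.38 and Axl, which clears dying cells, by 1.08 ± 0.12, while Scarb1 fell by 1.75 ± 0.36 on the log2 scale. Of 5 Fc receptor genes 0 passed in edgeR's test with all 6 libraries, with 3 at an unadjusted p under 0.05, and 0 passed without naive replicate 3. Fcgr1, the receptor with the smallest p, stood at 79.6, 32.7 and 81.5 CPM against 136, 78.3 and 178 CPM (1.02 ± 0.37, adjusted p = 0.062), and DESeq2 and limma voom (0.92) called it, as did edgeR without LPS replicate 3 (1.28). Replicate 3 was the lowest library of each group there.

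Complement genes rose in 3 of 14 tested members (21.4%) and fell in 2 (14.3%), against 15.3% and 13.4% of all tested genes. The list's median was 0.25. The median was -0.11 without composition factors, with 2 higher and 4 lower, -0.13 without naive replicate 3 and -0.33 without LPS replicate 4. Cfb, of the alternative pathway, went from 418, 338 and 522.5 CPM to 2496, 1122 and 2903 CPM (2.35 ± 0.36). Its neighbour C2 was at 182, 150.5 and 228 CPM and 1098, 500.2 and 1282 CPM (2.36 ± 0.35), in an almost fixed ratio to Cfb, and whether reads of the pair were kept apart is not given in the sources used here. C3 rose by 0.79 ± 0.19, but not past the threshold without composition factors (0.45). Cfp, the stabilizing factor properdin, fell by 1.36 ± 0.28 and C1qa, also a macrophage marker, by 2.62 ± 0.70 on the log2 scale. C1qa did not pass without naive replicate 2 (-1.94), LPS replicate 2 (-2.64) or LPS replicate 3 (-2.45).

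Lysosomal genes had 3 of 25 tested members higher and 6 lower, a share not far from the 28.7% called over all genes (median -0.13, but 0.03 without naive replicate 2 and 0.04 without LPS replicate 3; 1 higher and 11 lower without composition factors). Ctsz rose by 0.74 ± 0.13 and Ctsh fell by 0.43 ± 0.09. Tfeb, a driver of lysosomal genes, fell from 67.8, 33.3 and 66.3 CPM to 19.3, 11.9 and 17.4 CPM (-1.78 ± 0.31). Hexa, which encodes a lysosomal hydrolase, fell by 1.01 ± 0.32 on the log2 scale with groups that overlapped through naive replicate 3. Hexa did not pass without naive replicate 2 (-0.72), naive replicate 4 (-0.97), LPS replicate 3 (-0.78) or LPS replicate 4 (-1.10). Without naive replicate 3, 3 lysosomal members were higher and 9 lower (median -0.38).

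Inflammasome and death genes rose in 16 of 28 tested members and fell in 4 (median 0.52; 13 higher and 8 lower without composition factors). Nlrp3, the sensor that licenses interleukin 1 release, stood at 110, 91.3 and 94.6 CPM in naive cells and 406, 307 and 343 CPM with LPS (1.84 ± 0.13, adjusted p = 5.27e-06). Casp4, a receptor for LPS in the cytosol, rose by 2.23 ± 0.27, and Mlkl, which opens the membrane in necroptosis, by 2.57 ± 0.24. Survival genes rose beside them. Cflar, an inhibitor of caspase 8, went from 66.1, 202 and 95.3 CPM to 460, 425 and 481 CPM (1.91 ± 0.33).

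Of 24 tested glycolysis and hypoxia genes 9 rose and 1 fell (median 0.38), and of 30 genes of the tricarboxylic acid cycle and respiratory chain 1 rose and 10 fell (median -0.10). Hk2, a hexokinase, stood at 16.9, 22.6 and 20.7 CPM in naive cells and 81.3, 71.3 and 106 CPM with LPS (2.10 ± 0.16). Pfkp rose by 0.90 ± 0.09 and the glucose transporter gene Slc2a6 by 1.41 ± 0.17, while Gpi1 fell by 0.65 ± 0.10 on the log2 scale. Idh1, a cytosolic isocitrate dehydrogenase, went from 338, 239 and 297 CPM to 119, 131 and 121 CPM (-1.24 ± 0.13), and Idh2, its mitochondrial relative, from 52.6, 22.1 and 40.6 CPM to 9.32, 5.79 and 10.9 CPM (-2.15 ± 0.32). Without composition factors 5 glycolysis genes were higher and 4 lower (median 0.05), and 0 respiration genes were higher and 23 lower (median -0.43). Without the 3 libraries with over 100 Gpr34 counts 5 glycolysis genes were higher and 4 lower.

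Cell cycle genes fell in 27 of 38 tested members and rose in 3 (median -1.18), with 14 of 16 mitotic genes lower and 0 higher (median -2.36). Plk1, a mitotic kinase, stood at 6.49, 1.60 and 6.62 CPM in naive cells and 0.457, 0.839 and 0.618 CPM with LPS (-2.93 ± 0.52). Kif2c, a kinesin of the centromere, went from 25.7, 4.26 and 22.96 CPM to 1.91, 2.20 and 2.88 CPM (-2.92 ± 0.55). Birc5, which acts in cell division, was at 24.5, 6.31 and 36.4 CPM against 5.21, 2.46 and 7.50 CPM, and naive replicate 3 overlapped the LPS libraries (-2.15 ± 0.55). Birc5 did not pass without naive replicate 4 (-1.63). Over the list, naive replicate 3 was at -1.42 relative to naive replicates 2 and 4, and the LPS libraries were at -1.60, -1.84 and -1.32. Without naive replicate 3, all 16 mitotic genes fell (median -2.79).

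A few genes of the list rose. Tyms, which makes thymidylate, went from 27.98, 31.85 and 30.82 CPM to 70.5, 78.4 and 74.2 CPM (adjusted p = 5.43e-06). Ccnd2 stood at 101.5, 257 and 109 CPM in naive cells and 598, 589 and 677 CPM with LPS (1.99 ± 0.29), and Cdkn1a, which arrests the cycle, rose by 0.76 ± 0.13.

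Genes of amino acid transport and of the integrated stress response rose in 12 of 26 tested members and fell in 3 (median 0.63). Without composition factors 9 were higher and 8 lower. The 12 transporter genes had 6 higher and 3 lower (median 0.28), and the 14 stress genes had 6 higher and 0 lower (median 0.72). The glutamate transporter gene Slc1a2 went from 1.37, 2.04 and 1.85 CPM to 292, 131 and 266 CPM (7.02 ± 0.60), and the cystine transporter gene Slc7a11 rose by 1.54 ± 0.19. Slc43a2 fell by 2.20 ± 0.31 on the log2 scale. Of 19 tested genes of iron, haem and zinc 9 rose and 2 fell (median 0.61; 8 higher and 6 lower without composition factors). Lcn2, which withholds bacterial iron carriers, stood at 14.7, 20.8 and 13.54 CPM in naive cells and 946, 653 and 857 CPM with LPS (5.64 ± 0.21, adjusted p = 1.22e-07). Ferritin heavy chain, Fth1, rose by 1.12 ± 0.16 and haem oxygenase, Hmox1, by 1.77 ± 0.26.

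Cholesterol genes had 4 of 24 tested members higher (16.7%) and 2 lower (8.33%). Over all tested genes the shares were 15.3% and 13.4%. The list's median was -0.04, but 0.14 without naive replicate 2 and 0.20 without LPS replicate 3. Without composition factors 2 members were higher and 7 lower. Ch25h, which makes the antiviral lipid 25-hydroxycholesterol, went from 2.51, 5.03 and 2.53 CPM to 31.0, 9.45 and 26.9 CPM (2.73 ± 0.48). Dhcr7, of the last step of synthesis, fell from 51.3, 13.9 and 31.9 CPM to 10.8, 4.41 and 4.37 CPM (-2.31 ± 0.50). Without naive replicate 3, 4 members were higher and 8 lower.

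Genes of matrix, adhesion and actin rose in 30 of 50 tested members and fell in 8 (median 0.40). Without composition factors 16 rose and 12 fell (median 0.07), and of 18 actin genes 3 rose and 3 fell, against 14 and 1 with the factors. Mmp13, a collagenase, stood at 20.3, 40.9 and 14.98 CPM in naive cells and 831, 668 and 705 CPM with LPS (4.85 ± 0.39). Thbs1 rose by 2.47 ± 0.20 and Serpinb2, an inhibitor of plasminogen activators, by 3.92 ± 0.36. The integrin genes Itgal and Itga5 rose by 1.49 ± 0.11 and 1.91 ± 0.16, and Itga6 fell by 1.13 ± 0.18 on the log2 scale. Actb went from 8684, 11740 and 9027 CPM to 18790, 16160 and 18390 CPM (0.86 ± 0.12). Itgam, the CD11b gene, had the largest fall in mean CPM among genes named by the rule, from 3365, 1607 and 3114 CPM to 1249, 667.8 and 1134 CPM (-1.41 ± 0.31, adjusted p = 0.00601).

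The list of lysophospholipid receptors and enzymes and P2Y12-like receptors rose in 6 of 24 tested members (25%) and fell in 4 (16.7%). Gpr34, Gpr82 and Cask are counted among the 24, and none of these 3 passed. Over all tested genes the shares were 15.3% and 13.4%. The list's median was 0.17. The median was -0.16 without composition factors, with 4 higher and 7 lower, and -0.29 without the 3 libraries with over 100 Gpr34 counts. Pla1a, which makes lysophosphatidylserine, the ligand of GPR34, stood at 10.9, 35.8 and 10.5 CPM in naive cells and 148, 174 and 181 CPM with LPS (3.13 ± 0.41, adjusted p = 0.000298). Abhd12, which breaks that lipid down, fell from 177, 103.5 and 178 CPM to 92.2, 101 and 99.1 CPM (-0.65 ± 0.18). Naive replicate 3 was close to the LPS libraries for Abhd12, and without it the value was -0.88. Abhd12 did not pass without naive replicate 2 or 4 (-0.54 each) or LPS replicate 2 (-0.61). Among receptors, Lpar6 fell by 2.09 ± 0.26 on the log2 scale and Lpar5 went from 2.95, 1.26 and 3.29 CPM to 0 counts in all 3 LPS libraries, at least 114-fold lower when the LPS group is set to a floor of 3 counts in all. S1pr3 rose by 1.14 ± 0.18. Enpp2, whose product autotaxin makes lysophosphatidic acid, had a wide range among naive libraries. It stood at 2.22, 28.1 and 6.23 CPM in naive cells and 37.4, 69.8 and 73.0 CPM with LPS (2.29 ± 0.68, adjusted p = 0.0273), and without naive replicate 3 the value was 3.83 (adjusted p = 0.000112). Enpp2 did not pass without naive replicate 4 (1.97), LPS replicate 3 (2.17) or LPS replicate 4 (2.13).

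Acute phase genes rose in 7 of 13 tested members and fell in 1 (median 1.73; 7 higher and 3 lower without composition factors). Saa3 went from 9.53, 12.2 and 5.33 CPM to 376, 159 and 371 CPM (5.06 ± 0.41). Saa1 had 0 counts in all 3 naive libraries and rose to 7.49, 2.70 and 6.82 CPM, at least 353-fold higher against the same floor. Ptx3, a soluble pattern receptor, rose from 8.00, 10.5 and 6.56 CPM to 168, 48.0 and 120 CPM (3.74 ± 0.47), and LPS replicate 3 was the lowest LPS library for each of these genes. All 7 tested Schlafen genes and 7 of 8 Ms4a genes rose. Slfn2 went from 117, 134 and 117 CPM to 409, 358 and 449 CPM (1.73 ± 0.10, adjusted p = 8.52e-07). Ms4a6b went from 1.88, 0.443 and 1.502 CPM to 48.5, 30.6 and 81.6 CPM (5.43 ± 0.59), and Ms4a4d from 0 counts to 8.31, 3.97 and 10.6 CPM, at least 474-fold higher.

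Some genes outside these lists led by size. Helz2, a helicase that acts with nuclear receptors, stood at 740, 2308 and 935 CPM in naive cells and 5176, 6205 and 5926 CPM with LPS (2.12 ± 0.34). Il18r1 and Il18rap, the 2 chains of the interleukin 18 receptor, fell together. Il18r1 went from 17.5, 5.66 and 22.4 CPM to 0, 0.479 and 0.405 CPM (-5.62 ± 0.86) and Il18rap from 13.4, 6.46 and 14.4 CPM to 1.04, 0.260 and 0.405 CPM (-4.35 ± 0.51). Adam23 fell from 506, 558 and 476 CPM to 173, 191 and 165 CPM (-1.54 ± 0.12, adjusted p = 7.1e-06). Tgfbi fell from 656, 265.5 and 613 CPM to 89.0, 32.0 and 103 CPM (-2.78 ± 0.46). Hdc, which makes histamine, rose from 1.72, 3.44 and 2.08 CPM to 149, 131 and 158 CPM (5.90 ± 0.26). Hdc is also a marker of mast cells and their relatives, whose list summed to 32.9 to 68.2 CPM in naive and 139.5 to 189.1 CPM in LPS libraries. Of its 9 tested members Hdc was the one that rose and Siglecf fell (-2.28). Their part in the result was not tested.

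Naive replicate 3 was the library that set the spread of the naive group. Of 3102 called genes with at least 10 CPM in the naive group, 59 had a range of at least 4-fold between the 3 naive libraries, and in all 59 naive replicate 3 was the library apart. Among the 2924 such genes of the LPS group 5 had this range. Apol7c stood at 30.02, 243 and 34.03 CPM in naive cells and 519, 353 and 437 CPM with LPS (2.09 ± 0.65). Without naive replicate 3 Apol7c was at 3.75 ± 0.18, and it did not pass when any other of the 6 libraries was left out (1.65 to 2.22). Serpinb9f stood at 7.91, 51.1 and 10.5 CPM against 112, 116 and 84.7 CPM (2.16 ± 0.57), with 3.49 without naive replicate 3 and no call without naive replicate 4 (1.81). Itgb7, a gut-homing integrin, stood at 60.7, 10.5 and 42.6 CPM against 8.26, 3.97 and 6.73 CPM (-2.59 ± 0.51). The shift was not general: over the interferon-stimulated list naive replicate 3 lay at 0.10, while the LPS libraries lay at 2.78, 2.55 and 2.77. Naive replicate 3 also had the lowest macrophage marker sum of its group (1507 CPM against 4788 and 3813), 120 Gpr34 counts and the most counts of the 6 libraries. The part of these in its shift was not tested.

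Replicate 3 was low in both groups for another set of lists. Relative to naive replicates 2 and 4, antigen uptake genes were at -1.01 in naive replicate 3 and at -0.45, -1.27 and -0.48 in LPS replicates 2, 3 and 4. Lysosomal genes were at -0.54 and at -0.18, -0.66 and -0.22, and cholesterol genes at -0.70 and at 0.09, -0.89 and -0.18. Macrophage markers were at -1.26 and at -0.34, -1.39 and -0.64. For these lists LPS replicate 3 was below the other LPS libraries.

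The response was then set beside that of the wild-type cells, which share no library with it but share the fit. In wild-type cells 3064 genes were higher (18.1%) and 2679 lower (15.8%), which is 33.9% in either direction. The interaction of genotype label and LPS, which tests the difference itself, called 0 genes in the edgeR fit, and 678 genes (4%) had an unadjusted p under 0.05. DESeq2 called 10 genes with a larger value in cells labelled knockout and 11 with a smaller one, and limma voom called 0. Without the 3 libraries that hold Gpr34 counts, edgeR called 3. A label that 3 of the 6 libraries go against limits what this test can show, and a p that misses the threshold does not show that the responses were alike.

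Among the genes with the smallest interaction p, Maged1 rose in cells labelled knockout (0.94 ± 0.15) and was at -0.08 in wild-type cells. It stood at 39.1, 41.2 and 45.6 CPM in naive cells labelled knockout and 67.0, 87.2 and 86.8 CPM with LPS. Lck, a kinase of T cells, rose from 1.02, 1.11 and 1.40 CPM to 3.96, 4.93 and 7.03 CPM (2.18 ± 0.26), with 3.97 in wild-type cells. The T and NK cell markers, Lck among them, summed to 2.055 to 4.135 CPM in naive and 5.57 to 8.22 CPM in LPS libraries. Which cells the Lck reads came from was not tested. Kank2 fell from 1.04, 1.61 and 1.09 CPM to 0.330, 0.240 and 0.319 CPM (-2.07 ± 0.35), with 0.25 in wild-type cells. These 3 did not pass the interaction test over all genes (adjusted p of 0.9999 each). Without the 3 libraries with over 100 Gpr34 counts Maged1 (0.62) and Kank2 (-1.72) did not pass as responses either.

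**Figure D4:**
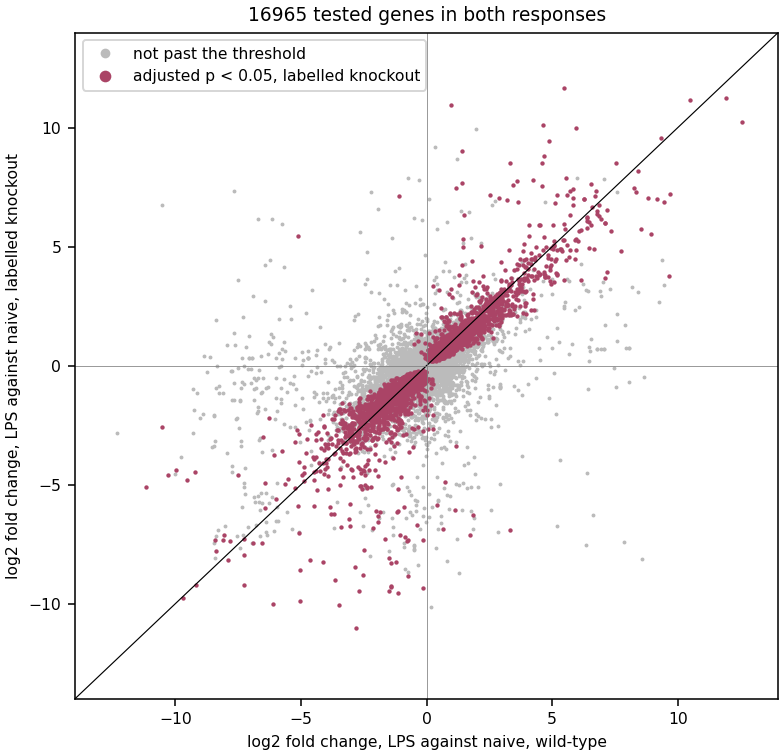
Each of 16965 tested genes by its log2 fold change with LPS in wild-type cells (x axis) and in cells labelled knockout (y axis), with a line of equal change. Dark red points passed at an adjusted p under 0.05 in cells labelled knockout, and 2309 genes were called higher and 1770 lower in both.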

How the data were processed

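RNA-seq counts per gene were used as deposited. The authors deposited 1 file of read counts per library, with whole counts that were not normalized. Per the submitters' processing notes, TopHat 1.3.3, Bowtie 0.0.9v, SAMtools, bedtools, DESeq and the mm9 build were used, with no role or order given. For the gene annotation and any use of strand in counting, the entry is "not given in the sources used here". Genes that overlap or resemble each other are therefore uncertain. A gene not listed in a library was set to 0.

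The 12 dendritic cell libraries entered 1 edgeR 4.0.16 quasi-likelihood fit (R 4.3.3) with TMM factors and 16965 genes left by edgeR's filter on low counts, with 8 residual degrees of freedom. CPM are TMM-scaled. SE is the log2 fold change divided by the root of F, and p-values were adjusted by Benjamini-Hochberg over all tested genes, with a threshold of 0.05. The test was checked on simulated data. Alternatives were DESeq2 1.42.0, limma voom 3.58.1 with sample weights, no filter on low counts, RLE factors, library totals with no composition factors, the 6 libraries alone, a replicate block and leaving out each library. Leaving out the 3 libraries labelled knockout with over 100 Gpr34 counts was added after seeing the data.

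Named genes were Gpr34, Gpr82 and Cask, the 10 called genes without overlap with the largest rise or fall in mean CPM and in log2 fold change at 10 CPM, up to 4 members of each role in each list by p, the 10 called genes with the widest range within a group, and the 5 genes in each direction with the smallest interaction p. The members and lists were chosen with earlier results of these data known. Gene places are GRCm38 (GENCODE), matched by gene ID, and not the build of the counts.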

Additional observations from a re-analysis of the deposited data

How the results depend on the processing

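Of 28 list medians 22 kept their sign under every alternative run, and 6 did not (chemoattractant receptors, MHC class II, complement, lysosome, cholesterol and lysophospholipid genes). Without composition factors 1441 genes were higher and 4986 lower, and medians were 0.16 for LPS sensing, -0.99 for eicosanoids, 0.04 for effector metabolism, 2.19 for interferon-stimulated genes, 0.18 for IRF and STAT genes, 0.20 for regulators, -0.12 for MHC class II, 0.46 for MHC class I, 0.20 for death, 0.05 for glycolysis, -0.43 for respiration, 0.31 for amino acids, 0.28 for metals, 0.07 for matrix, -0.16 for lysophospholipid and 2.32 for Schlafen and Ms4a genes. Heat shock genes (-0.06), Jak1 (-0.02) and Tfe3 (-0.08) reversed there. Without the 3 libraries with over 100 Gpr34 counts, the interaction called 3 genes, and medians were 0.65 for LPS sensing, 0.21 for effector metabolism, -0.29 for lysophospholipid and 2.18 for acute phase genes, and Smarca1 was at -2.32. DESeq2 called 21 interaction genes. With limma voom, LPS sensing was at 0.68 and acute phase at 2.31. The cause was not tested.

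Leaving out 1 library gave 1865 to 2936 higher and 1570 to 2672 lower genes, 0 interaction genes, and medians of 0.44 to 0.64 for LPS sensing, 0.23 to 0.41 for effector metabolism, 0.45 to 0.66 for regulators and 1.35 to 2.35 for acute phase genes. Osteoclast markers (6 genes, 0.41) reversed without the filter (-0.44) and ranged from -0.48 to 0.42 with 1 library left out. With the 6 libraries alone, 1837 genes were higher and 1571 lower. With a replicate block, 2829 genes were higher and 2419 lower, and effector metabolism was at 0.48. The labels do not say whether same-numbered libraries share an animal or a culture. Correlations of deviations over 16965 genes were 0.073, 0.075 and -0.008 for same-numbered libraries 2, 3 and 4. For differently numbered libraries they were -0.086 to 0.020, and whether the numbers mark pairs was not tested. Depth limits genes near the floor of 3 counts.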

Other observations

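LPS replicate 2 labelled knockout was high for 6 neighbouring protein-coding genes on chromosome 18 (GRCm38, 60813755 to 61085061, from Tcof1 to Pdgfrb, on both strands). They were found by looking for genes at 10 CPM or more and at least 8-fold above both other libraries of a group, so they were chosen after their values were seen. Camk2a stood at 0.211, 0.148 and 0.0823 CPM in naive replicates 2, 3 and 4 and at 897.7, 0.140 and 0.895 CPM in LPS replicates 2, 3 and 4. Pdgfrb, a growth factor receptor, stood at 0.985, 0.763 and 1.03 CPM and at 517, 6.27 and 8.52 CPM. Tcof1, a nucleolar factor, stood at 43.9, 44.9 and 46.9 CPM and at 1093, 60.1 and 67.0 CPM. Arsi was at 31.9 CPM, Slc6a7 at 159 CPM and Cdx1 at 42.5 CPM in LPS replicate 2, and Slc6a7 and Cdx1 were at 0 in the other 5 libraries.

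The flanking gene before Tcof1, Cd74, did not share this, at 10780 CPM in LPS replicate 2 and 11820 and 10650 CPM in LPS replicates 3 and 4. Csf1r, the gene after Pdgfrb, was at 840, 497 and 854 CPM in naive cells and at 1076, 392 and 560 CPM with LPS, highest in LPS replicate 2, against a wild-type maximum of 842 CPM. Without LPS replicate 2, Pdgfrb still rose (3.00 ± 0.42) and Tcof1 rose by 0.49 ± 0.12, while Camk2a did not pass (1.79 ± 1.40). LPS replicate 2 held 7 genes of this kind, 6 of them here and Unc13a (14.1 CPM) elsewhere, and the other 11 dendritic cell libraries held 0 to 3. No cause was tested.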
